A study of Homo sapiens with 2 samples.

Results

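The integrated stress response, the program that cells run through the transcription factor ATF4, was followed through 10 of its genes on the 2 arrays of this experiment. These are ATF4, ATF3, DDIT3, ASNS, TRIB3, CHAC1, SESN2, DDIT4, PSAT1 and PHGDH, taken by symbol from the platform's annotation. They were measured by 16 of the 54675 probe sets, a probe set being a group of probes for 1 stretch of a transcript, and they are 10 of the 19775 genes that could be named. A further probe set named for PHGDH and for other genes as well, 1 in number, was left out.

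The cells were HEK293T, a human embryonic kidney line that carries the SV40 large T antigen and that is not a leukemia cell. One culture condition received the plasmid pcDNA3.1-GFP (GFP control) and the other pcDNA3.1-IRX1::GFP, which encodes the homeobox protein IRX1 joined to GFP. Both conditions were transfected with polyethylenimine, expressed the plasmid transiently for 48 h and were sorted for GFP by flow cytometry before the RNA was taken, so that transfection, sort and GFP are common to both. From 200 ng of total RNA, biotin-labelled RNA was hybridised to 1 array for each condition, while the study describes its arrays as replicated. Whether each array is one of several replicates, with others not analysed here, or stands for a pool is not settled in the sources used here.

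The integrated stress response begins when kinases that sense missing amino acids, misfolded proteins in the endoplasmic reticulum, viral RNA or lack of heme phosphorylate the translation factor eIF2. General translation then slows while the ATF4 messenger RNA is translated more, and ATF4 switches on genes for amino acid supply, redox balance and, under lasting stress, cell death. The arrays measure messenger RNA only, so neither eIF2 phosphorylation nor the ATF4 protein was read here.

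The values are MAS5 signals, linear intensities scaled by the authors, each array to a trimmed mean of 1000. Background was set at the 90th percentile of 107 probe sets for olfactory receptors, at 143 on the GFP array and 179 on the IRX1::GFP array. For each gene the brightest probe set by mean signal was used, if that mean reached 183, the median over the probe sets that are not controls, which 12193 genes did. Log2 ratios put the IRX1::GFP signal over that of the control, and 2-fold was the limit for a call in either direction. With 1 array for each condition there is no test, no error between cultures and no spread within a condition, and this number of arrays is what limits precision. The one measure of noise is the SD of the log2 ratio between probe sets of the same gene, 0.49 over 5930 genes, or 0.35 over the 2847 genes with at least 2 probe sets whose mean reached the 75th percentile, 905. In such bulk RNA, a smaller number of cells with a transcript and less of it in every cell cannot be told apart. Of 8 markers of HEK293 cells, 7 were above background on both arrays, while PTPRC, COL3A1, LUM and CDH5, which mark leukocytes, fibroblasts and endothelium, were above it on neither. Of 5 blood cell markers 3 were above background on both arrays, with a summed signal of 1728 with GFP alone and 2334 with IRX1::GFP, and of 6 stromal markers 2 were, with 1195 and 3005. Their part in the results was not tested. The probe set for IRX1 read 33.1 and 57.0, under background on both arrays, and so gives no check of the labels.

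ATF4 and its partners of the C/EBP family bind a composite site in promoters, the C/EBP-ATF response element, searched here as TGATGNAA on both strands. RefSeq promoter windows (GRCh38.p14) that run from 250 bases before to 50 bases after a start were found for all 10 genes, 16 windows in total. Letters of this kind were present in 3 of these 16 windows, 1 each of ASNS, ATF3 and CHAC1, against 3.62% of all 35116 windows. The 3 stretches shown hold all the matches of this kind in the windows of the 10 genes, and were not chosen by the ratios on the arrays. Each is written 5′ to 3′ along the strand of the gene and ends before the start of its window's transcript, with the match in capitals.
ASNS: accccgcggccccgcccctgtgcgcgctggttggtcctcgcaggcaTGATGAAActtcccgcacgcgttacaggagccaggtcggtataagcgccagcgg
ATF3: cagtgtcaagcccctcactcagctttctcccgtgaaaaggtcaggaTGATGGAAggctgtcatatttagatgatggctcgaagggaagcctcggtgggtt
CHAC1: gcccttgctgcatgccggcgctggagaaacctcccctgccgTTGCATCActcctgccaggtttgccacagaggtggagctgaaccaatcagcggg

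The ASNS stretch is chr7:97872423-97872522 on the minus strand, and its match lies 68 to 61 bases before the start. The ATF3 stretch is chr1:212565170-212565269 on the plus strand, with the match 191 to 184 bases before the start. The CHAC1 stretch is chr15:40953221-40953315 on the plus strand, where the match reads on the opposite strand, 209 to 202 bases before the start. The full cAMP response element, TGACGTCA, was in none of the 16 windows and in 1.85% of all windows. The CCAAT box was in 8 of the 16 windows, from 7 of the 10 genes, and in 34.6% of all windows, and none of its matches overlapped the 3 above. These matches describe letters in the windows and are not binding sites that were measured.

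None of the 10 genes reached a 2-fold difference between the arrays. Of all 12193 genes, 10.4% passed 2-fold on the higher side with IRX1::GFP and 5.34% on the lower side. All 10 genes were bright, with a mean at or above 905, and among the 7678 genes of that brightness 6.68% were higher and 5.41% lower. On the log2 scale the ratio was below 0 for 8 of the 10 genes and above 0 for ATF4 and TRIB3. The median log2 ratio of the 10 genes was -0.31, while that of all genes was 0.07 and that of the bright ones -0.03. Of all genes 45.9% were below 0, and of the bright ones 51.8%. The lowest ratios were those of ATF3 and ASNS, and the highest that of TRIB3, 1.40 apart on the log2 scale from ATF3. Of the 10 ratios, 6 lay within 0.35 of 0, the SD for bright genes given above, as were 44.7% of all bright genes. Those of ATF3, ASNS, TRIB3 and SESN2 were farther from 0.

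**Figure D1:**
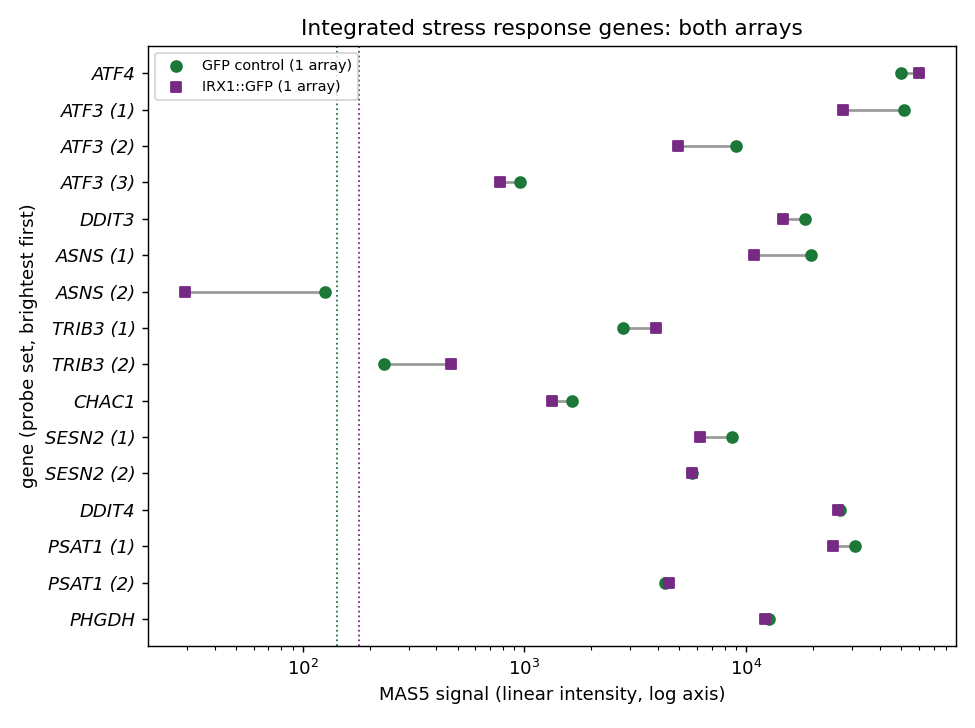
MAS5 signals on a log axis (x) of the 16 probe sets of the 10 genes (y, numbered from the brightest where a gene has several), with circles for the GFP control array, squares for the IRX1::GFP array and dotted lines at the background of each array. The symbols lie close together for DDIT4 and PHGDH, the square lies to the left for all 3 ATF3 probe sets, and the second ASNS probe set lies under background on both arrays.

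ATF4 is the bZIP transcription factor at the centre of the response. Its single probe set read 50058 with GFP alone and 60016 with IRX1::GFP, for a log2 ratio of 0.26 and 1.2-fold higher. The signal with IRX1::GFP was therefore the larger one, and 62% of all genes had a lower ratio. The highest signals on the arrays were 91566 and 94629, and compression of differences in that range was not tested. The log2 ratios of 11 reference genes ran from -0.77 to 0.53, with a median of 0.22, 7 of them above 0 and 4 below.

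ATF3, a bZIP factor that ATF4 induces and that can repress its own and other stress genes, had the lowest ratio of the 10. Its brightest probe set read 51217 with GFP alone and 27335 with IRX1::GFP, for a log2 ratio of -0.91 and 1.87-fold lower. The second probe set read 9008 and 4930, 1.83-fold lower. The dimmest of the 3 read 957 and 778, 1.23-fold lower. All 3 were lower with IRX1::GFP, and the first and the second lay just inside the 2-fold limit. The log2 ratios of the 3 spanned 0.61, and only 6.72% of all genes had a ratio lower than that of the brightest. After median centring the log2 ratio of ATF3 was -1.01 and after quantile normalization -1.08, both past 2-fold, while on the only probe set with no suffix it was -0.30.

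DDIT3 encodes CHOP, a C/EBP-like factor that ATF4 induces and that promotes cell death when the stress lasts. Its probe set read 18393 with GFP alone and 14672 with IRX1::GFP, for a log2 ratio of -0.33. The difference was 1.25-fold, less than probe sets of a bright gene vary by 1 SD. Of the 3 transcription factors, ATF4 was thus on the higher side with IRX1::GFP, and ATF3 and DDIT3 were on the lower side.

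ASNS, which encodes the asparagine synthetase and is a standard target of ATF4, read 19631 with GFP alone and 10814 with IRX1::GFP. This was 55.1% of the control signal, a log2 ratio of -0.86 and 1.82-fold lower. Of all genes 7.55% had a lower ratio. Its second probe set read 126 and 29.4, both under background, so no fold is given. Taken as the mean over both probe sets the log2 ratio of ASNS was -1.48, a value that takes in the probe set under background.

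PHGDH, PSAT1 and PSPH encode the enzymes that make serine from an intermediate of glycolysis, and the first and the second of them belong to the 10 genes. PHGDH, the entry step, read 12675 with GFP alone and 12117 with IRX1::GFP, for a log2 ratio of -0.06. PSAT1, the aminotransferase that follows, read 30906 and 24515 on its brighter probe set, 1.26-fold lower, and 4286 and 4493 on the dimmer one, 1.05-fold higher. The PSAT1 probe sets therefore lay on both sides of 0, with log2 ratios 0.40 apart. PSPH, the last step, read 3245 and 2603, 1.25-fold lower. None of the 3 serine enzymes differed 2-fold, and ASNS stood lower than both PHGDH and PSAT1 in its ratio.

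TRIB3 encodes a pseudokinase that ATF4 and CHOP induce and that dampens both of them and the kinase AKT. It was the member with the highest ratio. The brighter probe set read 2787 with GFP alone and 3931 with IRX1::GFP, 1.41-fold higher at a log2 ratio of 0.50. The dimmer one read 234 and 466, a log2 ratio of 1.00 and 1.99-fold higher, just short of the limit. Both were higher with IRX1::GFP, in contrast to the probe sets of ATF3, and 73.9% of all genes had a lower ratio than the brighter one.

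CHAC1 encodes an enzyme that breaks down glutathione and is induced by ATF4, ATF3 and CHOP. It read 1640 with GFP alone and 1334 with IRX1::GFP, for a log2 ratio of -0.30. Of all genes 28.3% had a lower ratio, and the difference was within the SD between probe sets of bright genes.

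SESN2 and DDIT4 encode inhibitors of mTORC1, the kinase complex that drives growth when nutrients are plentiful. SESN2, which senses leucine, read 8601 with GFP alone and 6186 with IRX1::GFP on its brighter probe set, a log2 ratio of -0.48. On the dimmer one it read 5687 and 5702, with a ratio of 0.00. The lower value of SESN2 therefore rests on 1 of its 2 probe sets. DDIT4, also known as REDD1 and induced by hypoxia and glucocorticoids too, read 26568 and 25907, a log2 ratio of -0.04. Of the 10 genes DDIT4 was the closest to 0.

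**Figure D2:**
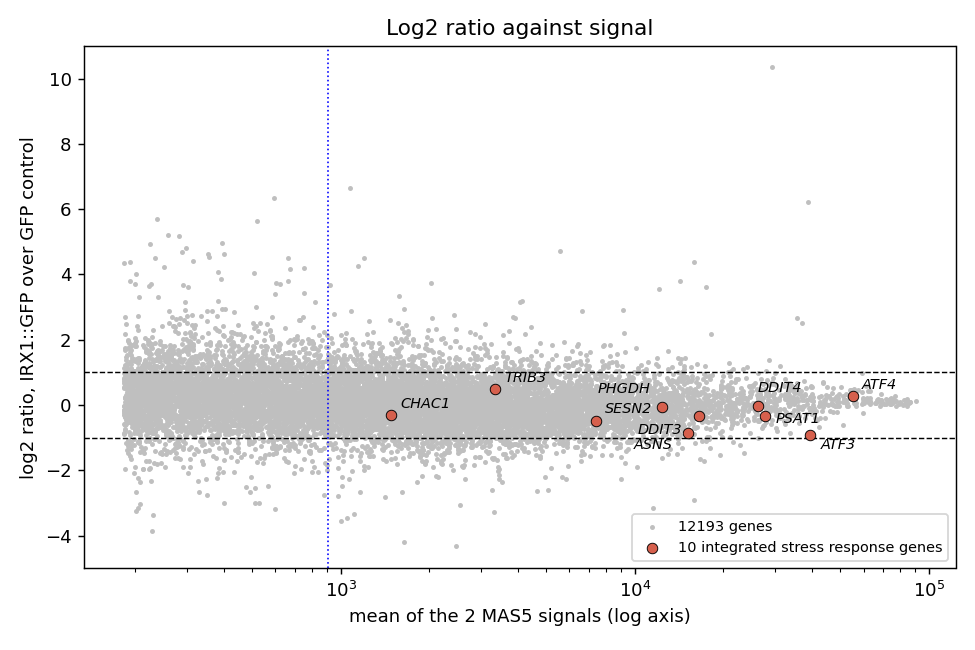
Log2 ratio, IRX1::GFP array against control array (y), set against the mean of the 2 signals on a log axis (x) for 12193 genes in grey and the 10 integrated stress response genes in red, with dashed lines at 2-fold and a dotted line at a mean of 905. All 10 genes lie right of the dotted line and between the dashed lines, with ATF3 and ASNS nearest to the lower one.

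Of the 10 genes, 4 had more than 1 probe set past the limit of 183. For ATF3 and TRIB3 all of these probe sets lay on the same side of 0, and for PSAT1 and SESN2 they did not. Of the 15 probe sets of the 10 genes past that limit, 10 had a ratio below 0 and 5 above. Of all 16 probe sets, 7 carry the suffix _s and 2 the suffix _a, which mark probes shared between transcripts. On these 2 arrays the ACTB control probe sets gave a signal ratio of 3-prime over 5-prime, a sign of RNA quality, of 3.23 with GFP alone and 1.64 with IRX1::GFP. Its part in the ratios of the 10 genes was not tested.

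The signs of all 10 log2 ratios were the same under the 9 other ways of processing that gave a value. The filters and the floor could not change these values, since all 10 genes were above those limits on both arrays. For a gene with 1 probe set the probe set rules could not either, so its range reflects the scalings alone. TRIB3 ranged from 0.39 to 0.75 and ATF4 from 0.05 to 0.26. ATF3 ranged from -1.08 to -0.30 and SESN2 from -0.58 to -0.24. DDIT3 stayed between -0.43 and -0.33, CHAC1 between -0.41 and -0.29 and PSAT1 between -0.44 and -0.13. DDIT4 lay between -0.17 and -0.04 and PHGDH between -0.17 and -0.06, so that the shift between scalings was larger than these small ratios.

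**Figure D3:**
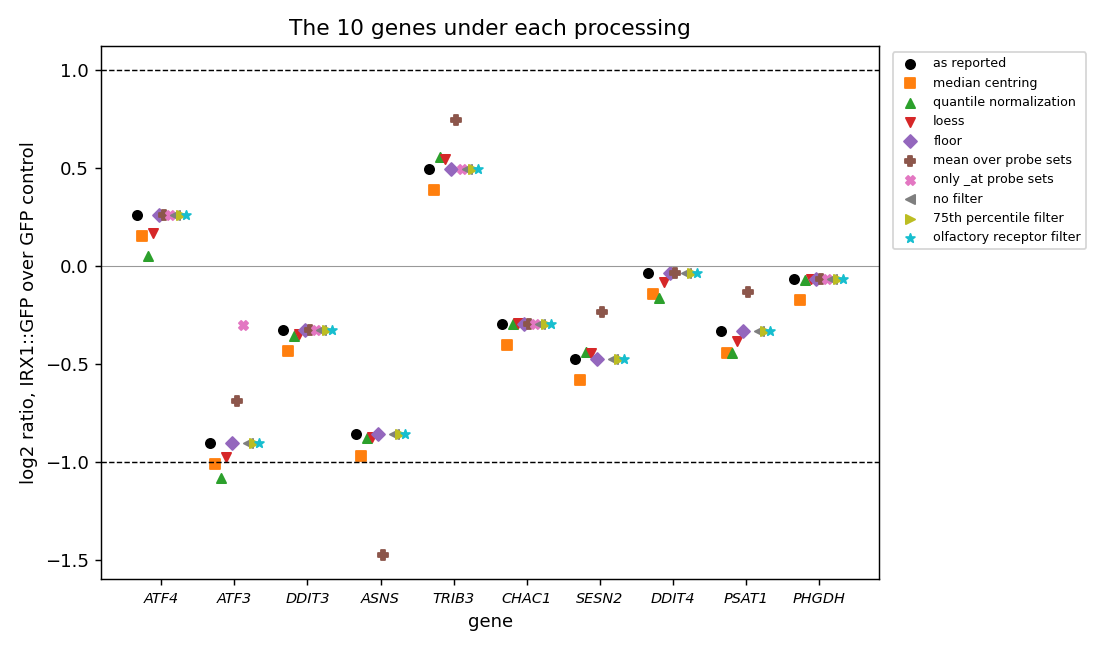
Log2 ratio, IRX1::GFP array against control array (y), of the 10 genes (x) as reported (black) and under each other way of processing, with dashed lines at 2-fold. ATF3 passes the lower line after median centring and quantile normalization, ASNS as the mean over its probe sets, and no gene reaches the upper line.

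The 6 paralogues past the signal limit had log2 ratios from -1.14 to 1.54, and the 10 genes from -0.91 to 0.50. TRIB1, a pseudokinase that hands C/EBP alpha to degradation, read 948 with GFP alone and 2760 with IRX1::GFP, 2.91-fold higher. TRIB2, which does the same, read 275 and 748, 2.72-fold higher. All 3 genes of the tribbles family thus had the larger signal with IRX1::GFP, TRIB3 by the least. SESN1, a sestrin under the control of p53, read 3064 and 1389, 2.21-fold lower. SESN3, a sestrin under the control of FOXO factors, read 2062 and 1145, 1.8-fold lower. All 3 sestrins were lower on their brightest probe set, SESN2 by the least. CHAC2 read 10147 and 6357, 1.6-fold lower, and ASNSD1 14732 and 10804, 1.36-fold lower. DDIT4L was under background on both arrays.

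Upstream of ATF4, none of 21 genes of the eIF2 switch was at least 2-fold different on its brightest probe set. Of all genes, 10.4% were higher and 5.34% lower by that much. The median log2 ratio of the 21 genes was 0.02. Dimmer probe sets of EIF2B4 and EIF2B5 were 2.23-fold and 2.64-fold higher. As the mean over probe sets 1 of the 21 was at least 2-fold higher, EIF2AK3, through a probe set under background. The 4 eIF2 kinases read as follows. EIF2AK3, known as PERK and active in the endoplasmic reticulum, read 4563 with GFP alone and 3301 with IRX1::GFP, 1.38-fold lower. EIF2AK2, known as PKR and activated by double-stranded RNA, read 3183 and 2303, also 1.38-fold lower. EIF2AK1, the heme-regulated kinase, read 4768 and 5863, and EIF2AK4, the amino acid sensor GCN2, read 1958 and 2247. The regulators that return eIF2 to its unphosphorylated form were PPP1R15A, itself an ATF4 target, at 7699 and 8039, and PPP1R15B at 9257 and 6263. Among the brightest probe sets EIF2S1, the subunit that the kinases phosphorylate, came closest to the limit at 15515 and 7914, 1.96-fold lower. Its other probe sets were 1.48-fold and 1.11-fold lower. After median centring the log2 ratio of EIF2S1 was -1.08, past 2-fold.

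The bZIP proteins that pair with ATF4, ATF3 and CHOP or are related to them came next. Of 17 genes past the signal limit, 2 were higher and 4 lower by 2-fold or more, with log2 ratios from -1.51 to 1.73. The shares of all genes are the 10.4% and 5.34% given above. As the mean over probe sets the counts were the reverse, 4 higher and 2 lower, so they depend on the probe set rule. CEBPA read 1854 with GFP alone and 6164 with IRX1::GFP, 3.32-fold higher, and CEBPD 302 and 818, 2.71-fold higher. CEBPB, a partner of both ATF4 and CHOP, read 12361 and 5003, 2.47-fold lower. NFE2L2, which encodes NRF2 and pairs with ATF4 at some antioxidant genes, read 9598 and 3596, 2.67-fold lower. CREM, at 2820 and 990, and CREB1, at 2424 and 978, were 2.85-fold and 2.48-fold lower on their brightest probe sets. CEBPG, the partner of ATF4 at many amino acid genes, read 6594 and 5931, within 2-fold, as did ATF5, a relative of ATF4, at 621 and 901.

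On the brightest probe sets, other genes that supply amino acids through ATF4 held the largest differences of the pathway lists. For RHEB, of the mTORC1 list, the lowest log2 ratio among 9 probe sets was -4.125, while its brightest had -0.21. Of 9 transporter genes none was higher and 2 were lower at 2-fold, where the shares of all genes are 10.4% and 5.34%. SLC7A11, which encodes the cystine carrier, read 6029 and 626 on its brightest probe set, 9.63-fold lower. The log2 ratios of its 3 probe sets ran from -3.465 to -0.404, and 2 of the 3 were at least 2-fold lower. SLC38A1, a glutamine carrier, read 10573 and 5180, 2.04-fold lower. The median of the transporter list was -0.32, but 0.19 as the mean over probe sets. Of 12 genes of amino acid synthesis 1 was higher and 2 were lower, beside the same shares of all genes. CTH, which makes cysteine from cystathionine, read 28079 and 3760 on its brighter probe set, 7.47-fold lower, and 7578 and 1115 on the other, 6.79-fold lower. PCK2, the mitochondrial enzyme that makes phosphoenolpyruvate, read 2125 and 1008, 2.11-fold lower. SHMT1 was the higher one, at 94.9, under background, and 291, which is at least 2.03-fold if the control is taken at its background level. It passed the signal limit through the IRX1::GFP array alone, and with signals raised to that limit its log2 ratio was 0.67, so that no gene of this list was then 2-fold higher.

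Of 11 tRNA synthetases known as ATF4 targets, 10 had a ratio below 0, beside 45.9% of all genes and 51.8% of the bright ones. Of the 11, 1, GARS1 at 18864 and 9285, was at least 2-fold lower, beside 5.34% of all genes. These counts rest on the brightest probe sets. Dimmer ones past the signal limit had log2 ratios of 0.13 and 0.55 for CARS1 and 0.13 for WARS1. Those of EPRS1, SARS1, TARS1 and YARS1 were below 0, at -2.11 for TARS1. The 2-fold lower count was 2 with probe sets averaged and 0 with suffixed ones left out. The median log2 ratio of these 11 synthetases was -0.27, close to the -0.31 of the 10 stress response genes. Of 6 other cytosolic tRNA synthetases, 4 were below 0, with a median of -0.01, and RARS1 was 2.87-fold higher, at 2798 and 8018. Of 19 further targets of ATF4 or CHOP, 1 was higher and 2 were lower, beside 10.4% and 5.34% of all genes. Their median was 0.10. BCL2L11, which encodes the death protein BIM that CHOP induces, read 1745 and 3844 on its brightest probe set, 2.2-fold higher, and its other 6 were 1.16-fold to 1.7-fold higher. INHBE read 657 and 240, and CLIC4 10194 and 4151, 2.73-fold and 2.46-fold lower. With probe sets averaged the counts were 0 higher and 1 lower, and with suffixed ones left out 0 and 2. Dimmer probe sets past the signal limit had log2 ratios up to 2.302 for SQSTM1 and 1.524 for JMJD6, and down to -1.663 for ERO1A. No difference between these lists was tested.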

How the data were processed

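RNA of HEK293T cells was read on Affymetrix HG-U133 Plus 2.0 arrays, 1 for GFP control and 1 for IRX1::GFP, grouped by sample title. The authors deposited MAS5 signals, a linear intensity that they had scaled (MAS5 is the tool in the submitters' processing notes, with no version or target). Without the lowest and highest 2% each array had a mean of 1000.

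Of 54675 probe sets, 41097 had 1 gene symbol, 1801 several and 11777 none. For 41043 of them the symbol was updated through the RefSeq gene table (GRCh38.p14). Log2 ratios were taken between the arrays. Genes at a mean under the 50th percentile were left out, and 2-fold was the call, with 4-fold as the study's second limit. No test was possible with 1 array per condition. Other settings tried were no filter, filters at the olfactory receptor level and the 75th percentile, a floor at the 50th percentile, the mean over probe sets, only probe sets with no suffix, loess (span 0.3), quantile normalization and median centring. The steps were tested on simulated data. Promoter windows were RefSeq's.

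The 10 genes and the 12 lists were chosen with earlier results of these data known. Named besides the 10 were the paralogues, the eIF2 kinases, PPP1R15A, PPP1R15B and up to 4 genes of each list with the largest ratios past 2-fold. PSPH, EIF2S1, EIF2B4, EIF2B5, CEBPB, CEBPG, CREB1, ATF5, CARS1, WARS1, TARS1, EPRS1, SARS1 and YARS1 were chosen after their values were seen. So were ACTB, GAPDH, HSPA5, XBP1, AKT1S1, RHEB, SQSTM1, JMJD6 and ERO1A. Python 3.11.15, numpy 2.4.6, pandas 2.3.3, statsmodels 0.14.6 and matplotlib 3.10.9 were used.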

Additional observations from a re-analysis of the deposited data

How the results depend on the processing

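No paired analysis was possible because there is a single array on either side, and for the same reason none was left out. The count of the 10 genes at least 2-fold lower, 0 as reported, was 1 after median centring and 1 after quantile normalization, ATF3 in both, and 1 as the mean over probe sets, where it was ASNS. It was 0 under the other 6 alternatives, and the count at least 2-fold higher was 0 under all 9. The filters and the floor could not have changed either count. No gene of the 10 reached 4-fold. The median log2 ratio of the 10 genes lay between -0.42 and -0.18. With only probe sets that carry no suffix, ASNS, SESN2, DDIT4 and PSAT1 had no value. The counts and the median of that setting leave them out. Median centring lowered every ratio by 0.11, and counts of all genes at least 2-fold higher and lower went from 1267 and 651 to 1047 and 850 with it. Without a filter they were 3456 and 1983, and among the bright genes alone 513 and 415. For the other lists, 188 of 216 counts stayed within 1.5 times the reported one and 28 did not. CREM, CREB1, NFE2L2, SLC38A1, SHMT1, BCL2L11 and CLIC4 came within 2-fold in at least 1 setting, with log2 ratios nearest to 0 of -0.45, -0.77, -0.93, -0.26, 0.67, 0.67 and -0.71, and NPRL2 read -0.10 with only probe sets that carry no suffix. EIF2AK3 was 1.47 as the mean over probe sets, which takes in a probe set under background. Signals under 143 or 179 are not above background and bear no fold.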

Other observations

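The other arms of the response to misfolded proteins held genes on both sides of 0. Of all genes past the signal limit, 10.4% were at least 2-fold higher and 5.34% lower. A ratio above 0 was found for 6600 of these 12193 genes, and for 3703 of the 7678 bright ones. Of 19 genes of ER chaperones and of the ATF6 and IRE1 arms, 15 had a ratio above 0. Their median log2 ratio was 0.18, and none was at least 2-fold higher while 1 was lower. That gene was ATF6, the membrane-bound sensor, at 1926 with GFP alone and 484 with IRX1::GFP, 3.98-fold lower, with other probe sets 3.35-fold, 3.42-fold and 1.69-fold lower. XBP1, the transcription factor of the IRE1 arm, read 19743 and 10967, 1.8-fold lower, with log2 ratios from -0.96 to -0.14 over the settings tried. HSPA5, the main ER chaperone, read 43981 and 45208 on its brightest probe set, and 460 and 1881 on a dim one.

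Of 21 genes of mTORC1 and its regulators, 1 was at least 2-fold higher, NPRL2, which helps to shut mTORC1 off when amino acids are missing, at 2031 and 4552, 2.24-fold, while its second probe set read 193 and 181. The median was 0.18. AKT1S1 read 1220 and 2436, a log2 ratio of 0.998, just short of the limit. The count at least 2-fold higher was 2 after quantile normalization and after loess. It was 0 with only probe sets that carry no suffix. Of 9 genes that hypoxia induces, as it does DDIT4, none was 2-fold different and the median was 0.53. That median was 0.19 with the 75th percentile filter, 1 of these genes was at least 2-fold higher after quantile normalization, after loess and as the mean over probe sets, and in the last of these 1 was lower. Of the 11 reference genes none was 2-fold different.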
